A study of Mus musculus with 24 samples.

Results

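The measurements described here come from the hippocampus of 16 corticosterone-treated mice, 8 killed during the first and 8 during the ninth hour of the light phase, out of 48 mice in the series. They were chosen by treatment and hour from the sample labels, and no measured value entered the choice. All mice were Swiss-Webster males, 12 weeks of age, with no genetic modification named. For 12 h of darkness, the active period of a mouse, the treated animals drank water with corticosterone (100 µg/ml) and hydroxypropyl-β-cyclodextrin (0.45%), a sugar ring that keeps the steroid in solution. The 16 vehicle mice set beside them, again 8 for each hour, drank water with the same share of cyclodextrin and no hormone. The study's methods say that control groups were made up of siblings of the treated mice, and which mice were brothers is not given in the sources used here. RNA of each treated mouse carried the dye Cy5 and was hybridized on 1 microarray together with RNA of a vehicle mouse carrying Cy3, so that 16 of the 24 arrays of the series bear on this comparison. Because the dyes were never exchanged, levels of treated and vehicle mice are not set against each other below. The comparison of the ninth with the first hour stays within a dye, where a constant difference between dyes cancels.

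The question was how the hippocampus of treated mice changes over the resting period that follows the night with the hormone. In the Cy5 channel alone, the clearing of corticosterone and the advance of the light phase cannot be told apart, and the Cy3 channel of the same arrays shows the second of these without added hormone. Hormone levels in blood were not analysed here. The paper reports that blood corticosterone of control mice was slightly raised by the ninth hour. The vehicle channel is thus no baseline of constant hormone, and its part in the differences below was not tested. RNA of a whole hippocampus does not separate fewer cells of a type from less RNA per cell. On the 16 arrays, 67.3 to 73.5% of Cy5 spots and 60.8 to 67.2% of Cy3 spots were well above background by the mark of the scanner software, and 0 spots were saturated. Slide 1 held 2 arrays of the first and 4 of the ninth hour, while slides 2 and 3 held 3 of the first and 2 of the ninth hour each. Of 15 markers of hippocampal neurons and their subfields, 14 gave spots above background, and the CA3 marker Iyd did so on none of the arrays.

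Corticosterone is the main glucocorticoid of the mouse. It enters cells, binds the mineralocorticoid receptor Nr3c2 with high and the glucocorticoid receptor Nr3c1 with lower affinity, and the bound receptor moves to the nucleus, where it attaches to response elements in DNA and raises or lowers transcription of nearby genes. The hippocampus carries both receptors and is a classical target of the hormone. In mice the hormone normally peaks near the start of the dark phase and is low during the light phase, so that glucocorticoid signals and the molecular clock share several targets, Per1 among them.

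From the first to the ninth hour, 2277 of 56605 probes changed in corticosterone-treated mice at an adjusted p under 0.05, which is 4.02% of all probes (limma separate channel test, Benjamini-Hochberg adjustment, 8332 probes at an unadjusted p under 0.05). A rise was called for 1249 of these (2.21%) and a fall for 1028 (1.82%). The called probes included 1837 with a name, from 1658 genes. The median size of the called changes was 0.34 on the log2 scale, 391 of those with an intensity of 50 or more were larger than 0.5 and 43 larger than 1. In vehicle mice, 304 probes (0.537%) changed over the same hours. The test of the difference between both changes called 468 probes (0.827%). A fall in treated mice went with 324 of these and a rise with 143. The difference was higher for 143 probes, and for 86 without replicate 4 of the first or of the ninth hour.

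Over the 1028 probes that fell, the median change was -0.358 in treated mice and -0.0975 in vehicle mice, and the difference was called for 28.3% of them. For the 1249 probes that rose, the medians were 0.331 and 0.145, and the difference was called for 9.61%. In all, 1866 of the treated calls were not called in the difference, with 720 of these at an unadjusted p under 0.05. Called changes in both channels were found for 200 probes, which are 65.8% of the vehicle calls and 8.78% of the treated calls. The direction was the same for 195 of them and opposite for 5, which were probes of Mt1, Mt2, Ramp2 and Cldn5 and a probe without a gene name. These medians and shares describe probes that were selected by the treated change, so that a larger median in treated mice follows from the selection, and both channels share their arrays. The plot of both changes against each other shows the called probes with an intensity of 50 or more.

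**Figure D1:**
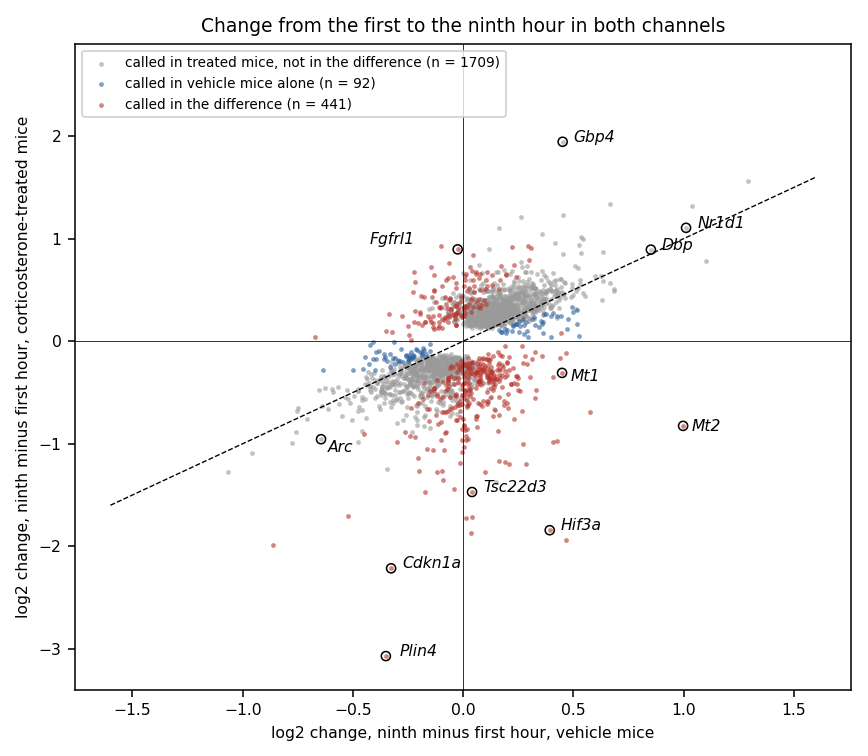
Log2 change, ninth against first hour, in vehicle mice (horizontal axis) and in corticosterone-treated mice (vertical axis) for 2242 called probes with a mean intensity of 50 or more. Gray points are 1709 probes called in treated mice and not in the difference, red points 441 probes called in the difference, blue points 92 probes called in vehicle mice alone, and the dashed line marks equal change. Plin4, Cdkn1a, Hif3a and Tsc22d3 lie far below the line, Mt1 and Mt2 lie to the lower right, and Nr1d1 and Dbp lie near the line.

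Genes known as targets of the glucocorticoid receptor fell together in treated mice. Of a list of 36 such genes, each measured by its brightest probe, 33 (91.7%) fell, 0 rose, and Sgk3, Angptl4 and Cebpb were not called. Over the brightest probes of all 23787 named genes, 2.6% fell, 3.62% rose and 6.23% changed in either direction. The median log2 change of the list was -0.818, against 0.0116 for all genes. In vehicle mice 0 of the 36 genes were called (0.837% of all genes) with a median of 0.00744, and the test of the difference called 27 of them lower (0.959% of all genes). In this test lower means that treated mice changed downward relative to vehicle mice. By unadjusted p under 0.05, 8 of the 36 passed in vehicle mice. The list was drawn up with earlier results of these samples known, and its direction is not independent evidence.

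A few of these genes hold the letters of a receptor site close to their start. The receptor binds as a pair to inverted repeats, and the core ACANNNTGT reads the same pattern on both strands. It was searched in the 250 bases before each gene start in RefSeq (GRCm38.p6), where 5.84% of 32851 windows held it. Of the 45 windows of 29 list genes, 6 (13.3%) held it. These belong to Fam107a, Map3k6, Sgk1 and Txnip, which fell like 33 of the 36 list genes, and a match describes these letters alone. The core is not particular to this list. Of 27 windows of early genes of neuronal activity, a list described below, 4 (14.8%) held it. The windows of Map3k6 (chr4:133240568-133240817, forward strand) and Txnip (chr3:96557707-96557956, forward strand) are shown for the direct view of such a core, which is in capitals.
Map3k6: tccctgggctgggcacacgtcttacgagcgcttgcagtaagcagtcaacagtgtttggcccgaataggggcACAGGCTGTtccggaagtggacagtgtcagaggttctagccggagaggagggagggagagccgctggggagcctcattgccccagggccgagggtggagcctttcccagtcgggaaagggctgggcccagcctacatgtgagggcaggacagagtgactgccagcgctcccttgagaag
Txnip: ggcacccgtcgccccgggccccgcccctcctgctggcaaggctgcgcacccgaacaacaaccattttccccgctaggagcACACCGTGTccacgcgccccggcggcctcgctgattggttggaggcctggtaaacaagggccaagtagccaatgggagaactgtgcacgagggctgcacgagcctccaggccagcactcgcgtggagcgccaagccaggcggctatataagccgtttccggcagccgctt

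Fkbp5, a cochaperone that the receptor induces and that lowers its hormone binding, had a normalized intensity of 2967 to 5509 (median 4054) in treated mice of the first and of 1972 to 2405 (median 2183) in those of the ninth hour. All 8 mice of the first hour lay above all 8 of the ninth. Fkbp5 fell by 0.86 in log2 units (SE 0.0952, adjusted p = 4.4e-09), the scale of all changes below. Its vehicle change was 0.02 (adjusted p = 0.98), and the difference was -0.88 (SE 0.115, adjusted p = 6.5e-07).

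Tsc22d3, which encodes the leucine zipper protein GILZ that mediates anti-inflammatory actions of the hormone, ranged from 4442 to 10914 (median 6855) at first and from 2232 to 2816 (median 2512) during the ninth hour. The groups did not overlap, and the mice of the ninth hour lay close together. It fell by 1.47 (SE 0.115, adjusted p = 2.9e-13), with changes within slides 1, 2 and 3 of -1.24, -1.35 and -1.74, against 0.04 in vehicle mice. Sgk1, a kinase that controls ion channels and transporters, went from 6299 to 11123 (median 7972) to 4240.1 to 4710.3 (median 4497), again without overlap, and fell by 0.82 (SE 0.0847, adjusted p = 5.2e-10). Its relative Sgk3 did not pass the test (0.02, adjusted p = 0.89), with all mice of both hours between 5807 and 7119. Nfkbia, the inhibitor that holds NF-κB in the cytoplasm, fell by 0.87 (SE 0.0915, adjusted p = 9.4e-10) from 2098 to 4299 (median 3240.2) to 1543 to 1863 (median 1658), and its groups were separate. The difference from the vehicle change was -1.51 for Tsc22d3, -0.83 for Sgk1 and -1.03 for Nfkbia, with adjusted p of 1.2e-10, 1.5e-07 and 4.5e-09.

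The largest called fall among named genes with an intensity of 50 or more was that of Plin4, which coats lipid droplets. Its intensity was 914 to 2787 (median 1892) in the first and 145 to 319 (median 205) in the ninth hour, and the lowest mouse of the first hour stood well above the highest of the ninth. Plin4 was 8.40 times lower during the ninth hour (log2 change -3.07, SE 0.222, adjusted p = 2.7e-14). Within slides 1, 2 and 3 the log2 change was -2.63, -3.15 and -3.49. Vehicle mice had intensities of 110.2 to 214 (median 167) and 88.7 to 184 (median 119.5) in these hours, with a change of -0.35 (adjusted p = 0.61), and the difference was -2.72 (SE 0.269, adjusted p = 4.1e-10).

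Cdkn1a, the p21 inhibitor of cyclin-dependent kinases, ranged from 249.9 to 1162 (median 680.3) during the first and from 105 to 166 (median 131) during the ninth hour. No mouse of one hour reached the range of the other. It fell by 2.22 (SE 0.206, adjusted p = 8.2e-11), and the difference from vehicle mice was -1.89 (SE 0.25, adjusted p = 1.3e-06). Hif3a, a member of the hypoxia-inducible factor family, spread widely at first, 119 to 755 (median 460.2), and narrowly later, 97.7 to 121 (median 106). A single mouse of the first hour, at the lowest value, reached into the later range. Hif3a fell by 1.84 (SE 0.267, adjusted p = 1.5e-06), while its change in vehicle mice was 0.39 (adjusted p = 0.78) and the difference -2.24 (SE 0.323, adjusted p = 1.1e-05). Map3k6, a stress kinase whose window is printed above, went from 175 to 567 (median 349) to 85.5 to 134 (median 94.9) without overlap and fell by 1.71 (SE 0.185, adjusted p = 3.4e-09). A second Tsc22d3 probe with a mean intensity of 1330 fell by 1.27 (adjusted p = 3.7e-12), with a difference of -1.37 (adjusted p = 4.1e-10). The other probes of Cdkn1a, Hif3a and Tsc22d3 were dim, were well above background on at most 2 of 8 arrays of an hour and were not called.

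Depp1, a regulator of autophagy downstream of FoxO factors, fell by 1.99 (SE 0.248, adjusted p = 2.1e-08) from 138 to 561 (median 320.1) to 55.3 to 118 (median 79.9). Its vehicle change of -0.86 had an adjusted p of 0.066, and the difference was -1.12 (SE 0.301, adjusted p = 0.019). The difference was -0.67 without slide 3 (adjusted p = 0.67), was not called without slide 1 either (adjusted p = 0.39), and lost its call without replicate 6, 7 or 8 of the first or replicate 4 of the ninth hour. Nor was it called with an offset of 0 for p-values (adjusted p = 0.066) or with the scanner's processed signals (adjusted p = 0.076). Txnip, an arrestin that limits glucose uptake and binds thioredoxin, fell by 0.51 (SE 0.0928, adjusted p = 8.7e-05), against 0.20 in vehicle mice. A dim Txnip probe with a mean intensity of 44.3 was at -0.19 in treated mice (adjusted p = 0.37). Arrdc2, another arrestin domain gene, had 2 probes of like brightness with changes of -0.86 and -0.93. Gjb6, the connexin that joins astrocytes, ranged from 7145 to 12822 (median 9657) and later from 4663 to 5661 (median 5237), ranges apart from each other, and fell by 0.88 (SE 0.0832, adjusted p = 5.5e-11).

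Among transcription factors on the list, the fall was 1.19 for the small Maf protein Maff, 0.61 for the zinc finger factor Klf15, 0.53 for the bZIP factor Cebpd, 0.39 for the repressor Zbtb16, 0.36 for the repressor Bcl6 and 0.29 for Klf9, each called in treated mice. Cebpb, which pairs with Cebpd, was at -0.06 (adjusted p = 0.81). For Klf9 the change was small and narrow, from 6471 to 8082 (median 6865) to 5430 to 6415 (median 5701), and the groups were still apart. Sult1a1, a sulfotransferase, fell by 0.87 (SE 0.124, adjusted p = 1e-06), while the difference from its vehicle change of -0.46 was not called, at -0.42 (SE 0.15, adjusted p = 0.19). Its second probe had a difference of -0.45 (adjusted p = 0.043). Dusp1, the phosphatase that turns off MAP kinases, fell by 0.42 (SE 0.11, adjusted p = 0.013) beside a vehicle change of -0.32 (adjusted p = 0.2), and the difference of -0.10 had an adjusted p of 1. Fam107a, an actin-binding protein, fell by 0.34 on its brightest probe (SE 0.0861, adjusted p = 0.0086) and was at -0.03 on a second probe of like brightness (adjusted p = 0.95). Xdh, the xanthine dehydrogenase of purine breakdown, fell by 1.37 (SE 0.336, adjusted p = 0.0046) with an uncalled difference of -1.52 (adjusted p = 0.055), and the flavin monooxygenase Fmo2 by 1.27 (SE 0.207, adjusted p = 1.2e-05). The remaining called members fell by 0.19 (Per1) to 1.25 (Pla2g3). The plot of the list sets both channels side by side for every member.

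**Figure D2:**
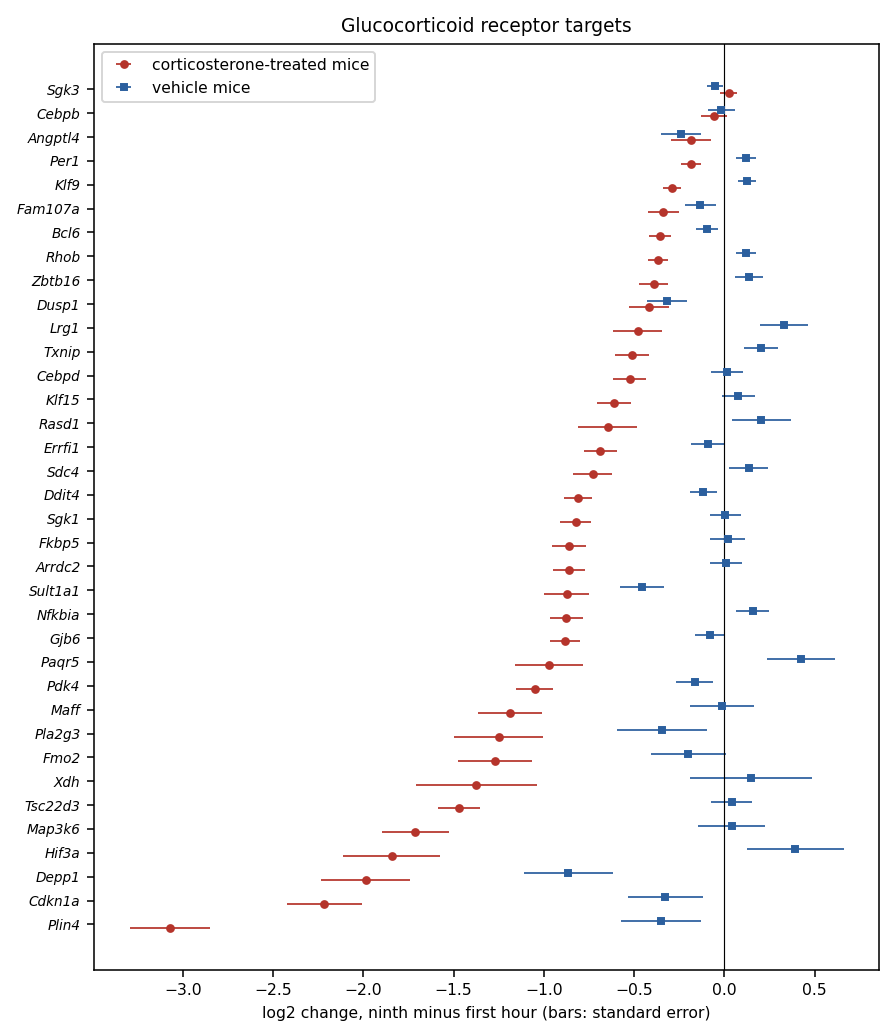
Log2 change, ninth against first hour, (horizontal axis) for the 36 glucocorticoid receptor targets, with red circles for corticosterone-treated and blue squares for vehicle mice and bars of 1 standard error of the fit. Red points lie between -3.07 and 0.02, and blue points scatter around 0, with Depp1 lowest at -0.86.

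**Figure D3:**
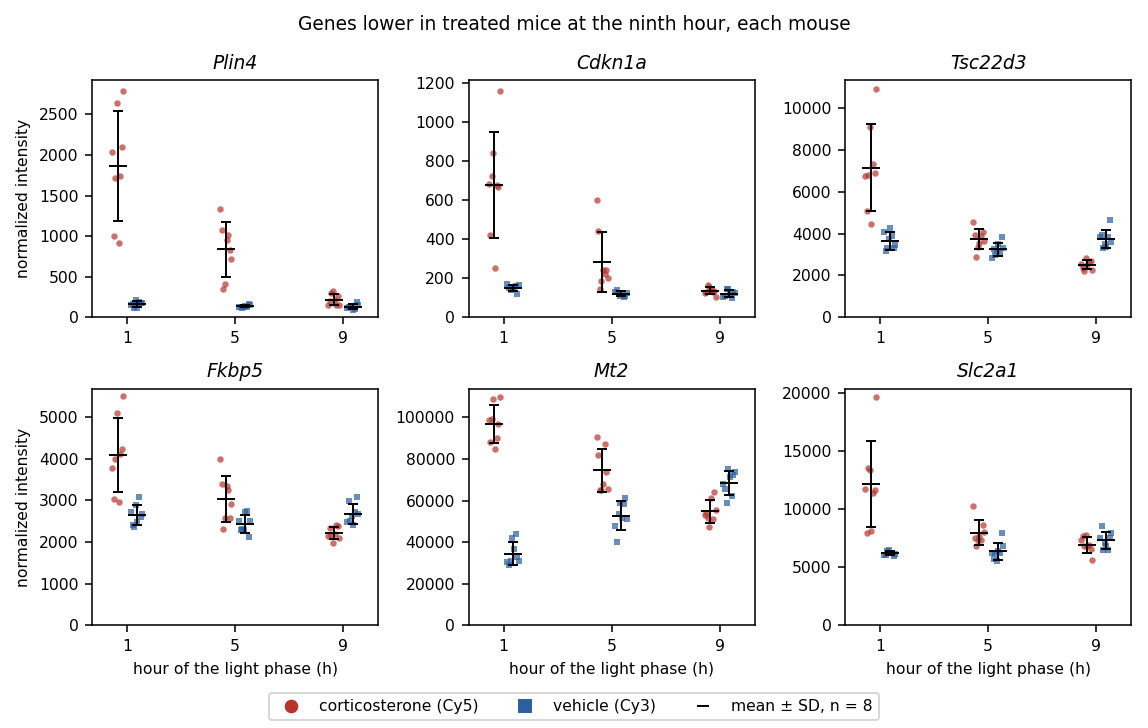
Normalized intensity of 6 genes that fell in treated mice (vertical axes, from 0) against the hour of the light phase, with 1 point per mouse, red circles for corticosterone and blue squares for vehicle, and black bars for the mean and SD of 8 mice. Intensities of the dyes are not comparable in level. In treated mice each gene is highest during the first and lowest during the ninth hour, while vehicle Mt2 rises.

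Of 17 genes of cell cycle arrest and growth control, 7 fell (2.6% of all genes) and 0 rose (3.62%), and 6 were lower in the difference (0.959%). The fallers besides Cdkn1a and Tsc22d3 were Fas, Ddit4, Irs2, Sesn1 and Gadd45g. The lists share members, Ddit4 being also among the 36 receptor targets, so that their counts are not independent. Ddit4, an inhibitor of the growth kinase mTOR, had intensities of 11605 to 21764 (median 14841) and later of 8326 to 9088 (median 8581). Its lowest mouse of the first hour was above the highest of the ninth, and Ddit4 fell by 0.81 (SE 0.0762, adjusted p = 4.6e-11). Fas, a death receptor, fell by 1.20 (SE 0.169, adjusted p = 7e-07), and the difference from vehicle mice was -1.40 (SE 0.205, adjusted p = 1.8e-05). Irs2, an adaptor of the insulin receptor and not an inhibitor of growth, fell by 0.36 (SE 0.0528, adjusted p = 1.3e-06). Sesn1, which restrains mTOR under stress, fell by 0.31 (SE 0.0598, adjusted p = 0.00022). Close relatives moved little, with 0.00 for Cdkn1b, -0.10 for Sesn3 and -0.10 for Gadd45a, none of them called, and the list median was -0.11. The difference of Gadd45g, -0.28 (SE 0.0758, adjusted p = 0.041), was near the threshold and was lost in 12 of the 24 fits that left out 1 array.

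Of 21 genes of fatty acid, ketone and lipid droplet metabolism, 5 fell (Plin4, Pdk4, Pnpla2, Ucp2 and Ppara) and 1 rose (Plin2), against 2.6% and 3.62% of all genes. The list median was -0.0223, and Plin4 is also among the receptor targets. Pdk4, the kinase that shuts pyruvate dehydrogenase and spares glucose, went from 661 to 1523 (median 944) to 358 to 578 (median 441). Those ranges did not meet, and Pdk4 fell by 1.05 (SE 0.102, adjusted p = 1.4e-10), with a difference from vehicle mice of -0.89 (SE 0.123, adjusted p = 2.6e-06). Pnpla2, the lipase that opens triglyceride stores, went from 2292 to 3909 (median 3430.4) to 1876 to 2054 (median 1966), again apart, and fell by 0.68 (SE 0.0868, adjusted p = 1.2e-07). Ucp2, a mitochondrial carrier, fell by 0.35 (SE 0.105, adjusted p = 0.024), and Ppara, a receptor for fatty acids, by 0.28 (SE 0.0853, adjusted p = 0.034), while Plin2, another droplet protein, rose by 0.29 (SE 0.0884, adjusted p = 0.034). The last 3 calls lay near the threshold. Leaving out replicate 4 of the first hour reduced the count of fallers from 5 to 3, and the call of Plin2 was lost in 10 of the 24 fits without 1 array. A dimmer Plin2 probe was at 0.03 in treated mice (adjusted p = 0.94). None of the 18 genes of cholesterol synthesis was called in either channel by limma, while 5 passed an unadjusted p under 0.05 in treated mice, and their changes there lay between -0.15 and 0.32.

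Of 11 genes of glucose transport and glycogen, 3 fell (2.6% of all genes) and 0 rose (3.62%) in treated mice. Slc2a1, the glucose transporter GLUT1 of the blood-brain barrier and of astrocytes, ranged from 7926 to 19645 (median 11650) during the first and from 5605 to 7732 (median 6853) during the ninth hour. The groups were apart, the highest mouse of the first hour stood well above its group, and Slc2a1 fell by 0.76 (SE 0.11, adjusted p = 2.3e-06). In vehicle mice it was at 0.23 (adjusted p = 0.45), and the difference was -0.99 (SE 0.133, adjusted p = 1.2e-06). Ppp1r3g, which steers protein phosphatase 1 to glycogen, fell by 0.74 (SE 0.103, adjusted p = 7.9e-07) from 1089.8 to 1915 (median 1480.4) to 676 to 949 (median 934), and its difference was -0.73 (SE 0.125, adjusted p = 0.00013). Its relative Ppp1r3c fell by 0.16 in treated mice (SE 0.0471, adjusted p = 0.019) beside -0.16 in vehicle mice. The neuronal transporter Slc2a3 (0.03) and the hexokinase Hk1 (0.08) did not pass the test.

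Of the 15 named genes with the largest falls, those on no list were Tmem52, Lao1, Pmaip1, Plekhf1, Tekt4, Gm11627 and Sfpq. Pmaip1, a BH3-only protein that promotes cell death, went from 546 to 2037 (median 916) to 285 to 393 (median 330.2). The groups did not overlap, 1 mouse of the first hour stood far above the others, and Pmaip1 fell by 1.47 (SE 0.127, adjusted p = 6.2e-12). Plekhf1, a protein of endosomes and lysosomes, fell by 1.44 (SE 0.116, adjusted p = 2.9e-13), with all mice of the first hour at 107.1 or more and all of the ninth at 66.5 or less. Tekt4, a tektin of ciliary microtubules, fell by 1.35 (SE 0.125, adjusted p = 4.8e-11) and Gm11627 by 1.28 (SE 0.103, adjusted p = 2.9e-13), both without overlap. Differences from the vehicle change were called for Pmaip1 (-1.30), Plekhf1 (-1.39), Tekt4 (-1.26) and Gm11627 (-1.16). The L-amino acid oxidase Lao1 fell by 1.70 (SE 0.303, adjusted p = 6.9e-05) and Tmem52 by 1.72 (SE 0.189, adjusted p = 1.4e-09), each with spots well above background on 6 of 8 arrays of the ninth hour. The difference of Tmem52 was -1.73 (SE 0.23, adjusted p = 2.4e-06), with vehicle spots well above background on 4 and 5 of 8 arrays, so that these sizes rest on signals near background.

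Sfpq, a splicing factor, was the exception among the large fallers, because the same probe fell by 1.07 in vehicle mice (adjusted p = 7e-05) and the difference was -0.21 (adjusted p = 0.97). This probe fell by 1.28 in treated mice (SE 0.159, adjusted p = 1.4e-07) with a mean intensity of 353. The brightest of the 4 Sfpq probes fell by 0.31 (adjusted p = 9.3e-05), and the other two were not called. Among probes that were also well above background in vehicle mice on all 8 arrays of an hour, the 10 largest lower differences belonged to Plin4, Hif3a, Cdkn1a, Mt2, Map3k6, Tsc22d3, Fas, Paqr5, Plekhf1 and Acer2. Paqr5, a membrane progestin receptor, had a difference of -1.39 (SE 0.23, adjusted p = 0.00012) and Acer2, a ceramidase of the Golgi, of -1.37 (SE 0.189, adjusted p = 1.6e-06). Within slides 1, 2 and 3 the difference was -0.89, -1.04 and -2.12 for Paqr5 and -1.30, -0.98 and -1.57 for Acer2. The difference of Paqr5 was not called without slide 3 (-1.05, adjusted p = 0.17).

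The metallothioneins Mt1 and Mt2, small proteins that bind zinc and copper and are induced by metals and by glucocorticoids, moved in opposite directions in treated and vehicle mice. Mt2 had intensities of 84700 to 109770 (median 97707) in treated mice of the first and of 47334 to 64140 (median 53392) in those of the ninth hour. The lowest mouse of the first hour was above the highest of the ninth, and Mt2 fell by 0.83 (SE 0.0923, adjusted p = 5.7e-09). In vehicle mice it rose, from 29132 to 43802 (median 31851) to 59008 to 75411 (median 69652), again without overlap, by 1.00 (SE 0.0923, adjusted p = 4.9e-10). The difference of -1.82 (SE 0.112) had an adjusted p of 6.6e-17, and within slides 1, 2 and 3 it was -2.02, -1.68 and -1.77.

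Mt1 behaved alike at a smaller size. It fell by 0.31 in treated mice (SE 0.0668, adjusted p = 0.0012), rose by 0.45 in vehicle mice (adjusted p = 4.8e-05), and the difference was -0.76 (SE 0.081, adjusted p = 2.5e-09). Without slide 2 the fall of Mt1 was not called. The highest values of both genes equal 109770, the top that quantile normalization gives every array, and values at that top have no order among them. Mt3, the brain form, was at 0.13 (adjusted p = 0.75). Of the 9 genes of this list, 2 fell (2.6% of all genes) and 1 rose (3.62%). The zinc exporter Slc30a1 rose by 0.26 (SE 0.0523, adjusted p = 0.00044), a call lost without slide 3, while the metal sensor Mtf1 (-0.04) and the zinc importers were not called. Ramp2, a receptor partner in blood vessels, was a further gene with opposite called changes, -0.26 in treated (adjusted p = 0.00033) and 0.23 in vehicle mice (adjusted p = 0.017).

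Sequences before both genes are shown because they hold the motif letters of metal response elements and, for Mt1, of the receptor. The metal response core was searched as TGCACNC and TGCGCNC on both strands, and 21.4% of all windows held it. Mt2 (chr8:94172368-94172617, forward strand) held 3 copies, at 223, 128 and 50 bases before its start, and no ACANNNTGT. Mt1 (chr8:94178839-94179088, forward strand) held 1 metal core 23 bases and 1 ACANNNTGT 92 bases before its start. Capitals mark these matches.
Mt1: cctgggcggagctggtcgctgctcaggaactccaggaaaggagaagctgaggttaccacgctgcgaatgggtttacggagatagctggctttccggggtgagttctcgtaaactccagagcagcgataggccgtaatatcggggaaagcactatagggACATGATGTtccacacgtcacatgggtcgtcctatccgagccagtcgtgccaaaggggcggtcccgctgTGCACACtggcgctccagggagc
Mt2: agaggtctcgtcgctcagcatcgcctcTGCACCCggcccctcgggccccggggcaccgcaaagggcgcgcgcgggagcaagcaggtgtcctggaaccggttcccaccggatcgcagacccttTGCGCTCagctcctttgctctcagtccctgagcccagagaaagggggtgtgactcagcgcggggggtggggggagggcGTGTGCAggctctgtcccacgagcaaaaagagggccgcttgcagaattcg

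Of 9 genes of corticosteroid receptors, chaperones and metabolism, Nr3c2 rose (3.62% of all genes), Fkbp5 fell (2.6%) and 7 were not called. Nr3c2, the mineralocorticoid receptor, had intensities of 7967 to 11816 (median 9259) and later of 10963 to 13151 (median 11822). Its groups overlapped, and it rose by 0.34 (SE 0.0721, adjusted p = 0.0012). The difference from the vehicle change of 0.05 was 0.28 (SE 0.0874, adjusted p = 0.11). Dimmer Nr3c2 probes were at 0.26 and 0.20 in treated mice and were not called (adjusted p = 0.069 and 0.35). For the glucocorticoid receptor Nr3c1, neither channel was called alone (0.18, adjusted p = 0.098, in treated and -0.18, adjusted p = 0.25, in vehicle mice), but the difference was, 0.36 (SE 0.0802, adjusted p = 0.0054). A second Nr3c1 probe gave 0.28 (adjusted p = 0.41). The difference was not called without slide 1, 2 or 3 (adjusted p = 0.18, 0.077 and 0.14). The treated rise of Nr3c2 was not called without slide 3 (adjusted p = 0.067). Without replicate 2 of the first hour, 2 genes of this list rose and 2 were higher in the difference, and without replicate 7 of the fifth hour 2 fell. The enzyme Hsd11b1, which regenerates corticosterone in cells, was at 0.21 (adjusted p = 0.16).

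Among genes that rose beyond the vehicle change, Fgfrl1, a receptor for fibroblast growth factors without a kinase domain, had the smallest adjusted p of the 10 named by this rule. In treated mice it was at 1127 to 1806 (median 1169) during the first and at 2230.1 to 2601 (median 2359) during the ninth hour. Every mouse of the ninth hour stood above every mouse of the first, and Fgfrl1 rose by 0.90 (SE 0.0768, adjusted p = 2.7e-12). Vehicle mice were at 1888 to 2305 (median 2082) and 1889 to 2234 (median 2031), a change of -0.02, and the difference was 0.92 (SE 0.0931, adjusted p = 7.8e-10). Within slides 1, 2 and 3 the treated change was 0.85, 0.80 and 0.98.

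Hes5, a repressor induced by Notch that keeps neural progenitors undifferentiated, went from 2846 to 5213 (median 3578) to 5159 to 6902 (median 6163). The groups met at their edges, Hes5 rose by 0.73 (SE 0.108, adjusted p = 3.9e-06), and the difference was 0.87 (SE 0.131, adjusted p = 1.2e-05). A second, dimmer Hes5 probe gave a difference of 0.48 (adjusted p = 0.35). Fabp7, the brain fatty acid binding protein of radial glia and astrocytes, went from 3167 to 4919.7 (median 3732) to 6439 to 9727 (median 7007) without overlap. It rose by 0.93 (SE 0.098, adjusted p = 1.2e-09), against 0.29 in vehicle mice, and the difference was 0.64 (SE 0.119, adjusted p = 0.00058).

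Mmrn2, an endothelial matrix protein, rose by 0.91 (SE 0.113, adjusted p = 1.2e-07) with a difference of 0.60 (SE 0.137, adjusted p = 0.014). The endothelial protocadherin Pcdh12 rose by 0.68 (SE 0.146, adjusted p = 0.00098) with a difference of 0.90 (SE 0.177, adjusted p = 0.0022), and the homeobox factor Meox1 by 0.77 (SE 0.0928, adjusted p = 2.1e-08) with a difference of 0.83 (SE 0.112, adjusted p = 1.6e-06). Gpr84, a receptor for medium-chain fatty acids on microglia and other myeloid cells, went from 83.9 to 129 (median 103) to 168 to 214 (median 197), ranges that lay apart. It rose by 0.92 (SE 0.114, adjusted p = 2.6e-08), and the difference was 0.70 (SE 0.139, adjusted p = 0.0014). Cdc42ep1, an effector of the small GTPase Cdc42, rose by 0.73 (SE 0.0912, adjusted p = 8.4e-08) without overlap. Bcl3, Rhcg and Tmprss5 rose by 0.64, 0.48 and 0.84, with differences of 0.77, 0.71 and 0.79 (adjusted p = 0.012, 0.0082 and 0.017). These 3 differences were not called without slide 1 (adjusted p = 0.69, 0.55 and 0.2) or slide 3 (0.073, 0.24 and 0.28), nor that of Tmprss5 without slide 2 (0.18) or without any of 3 single arrays. Pcdh12 lost its called difference without slide 1 or 3 and Gpr84 without slide 3. Derl3, of the degradation machinery of the endoplasmic reticulum, was in the group through the vehicle channel, with a treated change of 0.04 (adjusted p = 0.93), a vehicle change of -0.67 (adjusted p = 0.03) and a difference of 0.71 (SE 0.189, adjusted p = 0.047), which was lost in 15 of the 24 fits without 1 array. Called differences were higher for 0.492% of all genes by brightest probe and in either direction for 1.45%.

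**Figure D4:**
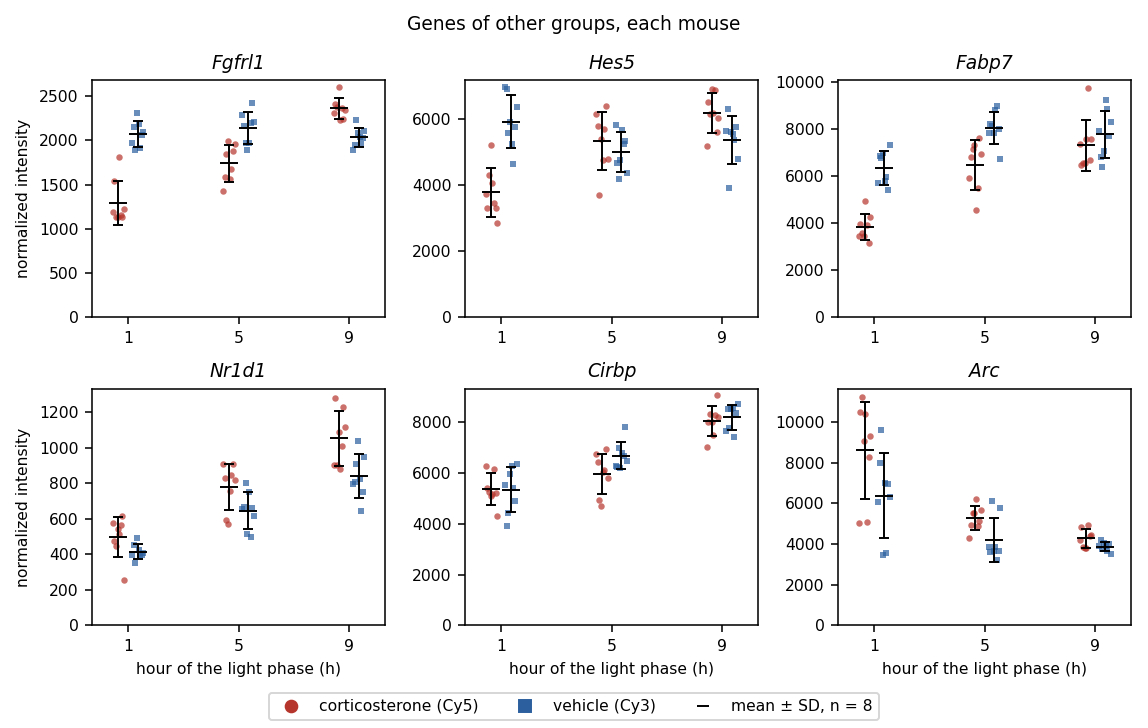
Normalized intensity of 6 further genes (vertical axes, from 0) against the hour of the light phase, with 1 point per mouse, red circles for corticosterone and blue squares for vehicle, and black bars for the mean and SD of 8 mice. Intensities of the dyes are not comparable in level. Fgfrl1, Hes5 and Fabp7 rise in treated mice with smaller or opposite changes in vehicle mice, while Nr1d1 and Cirbp rise and Arc falls in both.

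Of 21 genes of the core clock and its output, 4 rose (Nr1d1, Dbp, Ciart and Nr1d2) and 3 fell (Nfil3, Per2 and Per1) in treated mice. Of all genes, 3.62% rose and 2.6% fell in these mice. In vehicle mice 3 of the 21 rose (0.454% of all genes) and 1 fell (0.383%). The difference was called for Per1 alone. Without slide 1 the count of treated risers was 2. Nr1d1, the nuclear receptor that represses the clock activator Arntl, had intensities of 256 to 618 (median 531) and 884 to 1283 (median 1048) in treated mice. The later group lay wholly above the earlier, and Nr1d1 rose by 1.11 (SE 0.131, adjusted p = 2.6e-08), with 0.99, 0.91 and 1.40 within slides 1, 2 and 3. In vehicle mice the rise was 1.01 (adjusted p = 5.2e-06), and the difference of 0.09 had an SE of 0.159.

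Dbp, an output factor of the clock, went from 5677 to 8716 (median 7910.3) to 10786 to 16064 (median 14211) in treated mice without overlap and rose by 0.89 (SE 0.0933, adjusted p = 9.7e-10). Its vehicle change was 0.85 and the difference 0.04 (SE 0.113, adjusted p = 1). Ciart, a repressor within the clock, rose by 0.78 in treated (SE 0.178, adjusted p = 0.0012) and by 1.10 in vehicle mice (adjusted p = 1e-04). Its difference of -0.32 (SE 0.216) missed the threshold, which does not show equal changes. Nfil3, which opposes Dbp at its sites, fell by 0.45 in treated (SE 0.0738, adjusted p = 2.3e-05) and by 0.33 in vehicle mice (adjusted p = 0.013). Per2, a repressor of the clock, fell by 0.40 (SE 0.0747, adjusted p = 0.00019), with -0.16 in vehicle mice (adjusted p = 0.43) and an uncalled difference of -0.24. Dimmer probes of Ciart (0.09), Per2 (-0.10) and Nr1d2 (0.13) were not called in treated mice (adjusted p = 0.82, 0.8 and 0.36).

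Per1, which is both a clock repressor and a receptor target, was the clock gene with a called difference. Its intensity was 3244 to 3949 (median 3434) in treated mice of the first and 2769.5 to 3330.4 (median 3132) in those of the ninth hour. The groups overlapped at their edges, and Per1 fell by 0.19 (SE 0.0561, adjusted p = 0.027). The vehicle change was 0.12 (adjusted p = 0.42), and the difference -0.31 (SE 0.068, adjusted p = 0.004). The call in treated mice was lost in 10 of the settings run, with an adjusted p of up to 0.41. Of these settings, 4 were among the 24 fits without 1 array. The call of the difference was lost without slide 2 (adjusted p = 0.077) and without slide 3 (adjusted p = 0.22). The E-box CACGTG, to which the clock activators bind, stood in 6.02% of all windows and in 6 of the 25 windows (24%) of the 17 clock genes that have any. One of the windows of Per1 (chr11:69098699-69098948, forward strand) held 1 copy, 166 bases before the start, and that of Ciart (chr3:95882229-95882478, reverse strand) held 3, at 116, 58 and 44 bases. They are shown with the E-box in capitals.
Per1: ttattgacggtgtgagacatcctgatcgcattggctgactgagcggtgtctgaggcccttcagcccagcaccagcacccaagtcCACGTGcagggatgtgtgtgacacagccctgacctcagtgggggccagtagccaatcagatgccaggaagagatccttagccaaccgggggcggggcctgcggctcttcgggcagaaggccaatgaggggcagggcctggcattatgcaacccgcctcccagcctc
Ciart: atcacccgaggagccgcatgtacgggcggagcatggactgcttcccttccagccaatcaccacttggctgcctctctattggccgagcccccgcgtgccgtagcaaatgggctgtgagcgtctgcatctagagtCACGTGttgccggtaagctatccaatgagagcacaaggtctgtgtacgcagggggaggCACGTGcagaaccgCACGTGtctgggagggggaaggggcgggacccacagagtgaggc

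Early genes of neuronal activity fell in part, and no difference between channels was called among them. Of 20 such genes, 4 fell in treated mice (Fos, Arc, Nr4a1 and Dusp5) and 2 in vehicle mice, against 2.6% and 0.383% of all genes. In the difference 0 were called by limma (5 at an unadjusted p under 0.05). Arc, which serves synaptic plasticity, ranged from 5025 to 11246 (median 9203) during the first and from 3792 to 4937 (median 4298) during the ninth hour. The groups did not overlap, the first being widely spread, and Arc fell by 0.96 (SE 0.157, adjusted p = 2.8e-05), with -0.64 in vehicle mice (adjusted p = 0.03). Fos, the classical marker of recent firing, fell by 1.09 (SE 0.259, adjusted p = 0.0039), with -0.96 in vehicle mice (adjusted p = 0.048). Nr4a1, an early nuclear receptor, fell by 0.53 (SE 0.126, adjusted p = 0.0042), against -0.23 (adjusted p = 0.54). Without slide 1 the list had 2 called fallers and without slide 2 it had 1. Egr1 (-0.15), Junb (-0.09), Homer1 (0.03) and Bdnf (0.11) were not called in treated mice.

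Of 17 heat shock and cold shock genes, 2 rose and 2 fell in each channel, and none was called in the difference (0 at an unadjusted p under 0.05). Of all genes, 3.62% rose and 2.6% fell in treated mice, and 0.454% and 0.383% in vehicle mice. The cold-induced RNA binding proteins moved most among those called. Cirbp went from 4308 to 6286 (median 5216) to 7008 to 9057 (median 8098) in treated mice, apart from each other, and rose by 0.59 (SE 0.0872, adjusted p = 3.1e-06), with 0.63 in vehicle mice. Its probe with a mean intensity of 238 rose by 0.41 in treated mice (adjusted p = 0.033). That with a mean intensity of 134 was at 0.03 (adjusted p = 0.97). Rbm3 rose by 0.49 (SE 0.101, adjusted p = 0.00079), with 0.69 in vehicle mice, on its brightest probe. A dim Rbm3 probe with a mean intensity of 70.2 fell by 0.99 in treated mice (adjusted p = 9.3e-06), against the direction of the other probes. Hspa1a, an inducible Hsp70, fell by 0.39 (SE 0.0931, adjusted p = 0.0052), and its partner Dnaja1 by 0.20 (SE 0.0496, adjusted p = 0.0047). A dimmer Dnaja1 probe was at 0.05 in treated mice (adjusted p = 0.89). Without replicate 6 of the first hour, or replicate 7 of the fifth, the count of fallers was 4, and it was 0 without slide 2 and 1 without slide 1 or 3. Of 14 genes of endoplasmic reticulum stress, Manf fell by 0.29 and Creld2 by 0.31, both close to the threshold (adjusted p = 0.043 and 0.044). The list median was -0.116 in treated and -0.182 in vehicle mice, where 2 genes fell, and the differences of Manf (0.04) and Creld2 (-0.10) were not called. The treated count was 0 without any of several arrays, such as replicates 5, 7 or 8 of the first hour.

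Of 16 interferon-stimulated genes, Gbp2, Gbp3 and Ccl12 rose (3.62% of all genes) and 0 fell (2.6%). The list median was 0.422, against 0.102 in vehicle mice and 0.0116 for all genes in treated mice. None was called in the difference (3 at an unadjusted p under 0.05). Gbp4, an interferon-induced GTPase on no list, had intensities of 27.4 to 126 (median 49.8) and later of 72.7 to 570.0 (median 269). Its groups overlapped, and Gbp4 rose by 1.95 (SE 0.445, adjusted p = 0.0088), with 2.67, 0.52 and 2.49 within slides 1, 2 and 3. Its vehicle change was 0.45, and the difference of 1.49 was not called (adjusted p = 0.52). Gbp2 rose by 1.04 (SE 0.232, adjusted p = 0.0038) and Gbp3 by 1.22 (SE 0.301, adjusted p = 0.016). The chemokine Ccl12 rose by 1.33 (SE 0.199, adjusted p = 6.3e-05), with spots well above background on 5 of 8 arrays of the first and 8 of 8 of the ninth hour. Without slide 1 none of these 3 list genes was called, and without replicate 8 of the first hour 5 list genes were.

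Further large risers were Agpat5, Tlr12, Slc38a5, Tnfsf10, Opalin and 9530082P21Rik, the last with a rise of 1.00 (SE 0.179, adjusted p = 9.1e-05). Slc38a5, an amino acid transporter, went from 137 to 556 (median 341) to 593 to 936 (median 724) without overlap and rose by 1.23 (SE 0.183, adjusted p = 2.8e-06), with an uncalled difference of 0.77 (SE 0.222, adjusted p = 0.073). Tnfsf10, the death ligand TRAIL, rose by 1.10 (SE 0.195, adjusted p = 2e-04), with an uncalled difference of 0.94 (adjusted p = 0.067). Agpat5, an acyltransferase of phospholipid synthesis, rose by 1.57 on a dim probe (SE 0.401, adjusted p = 0.0097) with 1.29 in vehicle mice, and by 0.39 on its brightest probe (adjusted p = 0.036). The call on the dim probe was lost without slide 1 (adjusted p = 0.23) and without slide 3 (adjusted p = 0.089). The toll-like receptor Tlr12 rose by 1.32 (SE 0.353, adjusted p = 0.0028), beside 1.04 in vehicle mice, with a difference of 0.28 (adjusted p = 1). Within slides 1, 2 and 3 the treated change was 1.55, 0.01 and 1.88, and 1 mouse of the ninth hour, at 33.3, lay below all mice of the first.

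Markers of cell types were mostly uncalled in treated mice, where 3.62% of all genes rose and 2.6% fell. None of the 9 astrocyte markers, 5 blood markers or 9 markers of neighbouring brain regions was called by limma, while 4, 1 and 1 of them passed an unadjusted p under 0.05. Summed astrocyte intensity was 140000 to 158000 in the first and 140000 to 150000 in the ninth hour, and summed blood intensity 51300 to 80000 and 30900 to 73000. Of 9 oligodendrocyte markers, Opalin rose by 1.02 (SE 0.174, adjusted p = 9.1e-05) with an uncalled difference of 0.48 (adjusted p = 0.73), while the myelin genes Mbp (-0.11) and Mog (0.07) were not called. Of 8 microglia markers 2 rose, Cx3cr1 by 0.39 (SE 0.0602, adjusted p = 5.7e-06) and Aif1 by 0.49 (SE 0.119, adjusted p = 0.006), and the list median was 0.0483 beside 0.123 in vehicle mice. Neither difference was called, with 0.25 for Cx3cr1 (adjusted p = 0.069) and 0.36 for Aif1 (adjusted p = 0.44). Summed microglia intensity was 18600 to 25500 (median 21200) and later 21700 to 24100 (median 23600) in treated mice, and its median went from 21800 to 24700 in vehicle mice. Of 8 endothelial and mural markers 3 rose, Tie1 by 0.61, Cldn5 by 0.27 and Vtn by 0.26, with a summed intensity of 14800 to 18400 and later 16800 to 20300. Tie1 also rose in vehicle mice, by 0.44 (adjusted p = 0.0032), and its difference of 0.17 was not called (adjusted p = 0.88). Of 8 choroid plexus markers, F5 rose by 0.43 (SE 0.132, adjusted p = 0.032), a call that was lost with slide as a block (adjusted p = 0.061), without any one slide and in 7 of the 24 fits without 1 array. Of the 15 hippocampal neuron markers, Dsp, a desmosome protein of dentate granule cells, fell by 0.52 (SE 0.136, adjusted p = 0.011), and it was not called without slide 1 (adjusted p = 0.27) or slide 2 (adjusted p = 0.11). The part of changed cell composition in these rises was not tested.

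Cldn5, the tight junction protein of the blood-brain barrier, was the endothelial marker with a called difference. It went from 1916 to 2939.8 (median 2333) to 2696 to 3271 (median 2886) in treated mice and rose by 0.27 (SE 0.0786, adjusted p = 0.027), while in vehicle mice it fell by 0.34 (adjusted p = 0.02). The groups overlapped in both channels, and the difference was 0.60 (SE 0.0953, adjusted p = 2.5e-05). Without slide 1 it was not called, and 1 of the 8 markers was higher in treated mice. The treated rise of Cldn5 lost its call without any one slide and in 5 of the 24 fits without 1 array. Pecam1, a pan-endothelial marker, was at -0.09 (adjusted p = 0.67) in the same mice. The plot of the gene lists shows each member in both channels.

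**Figure D5:**
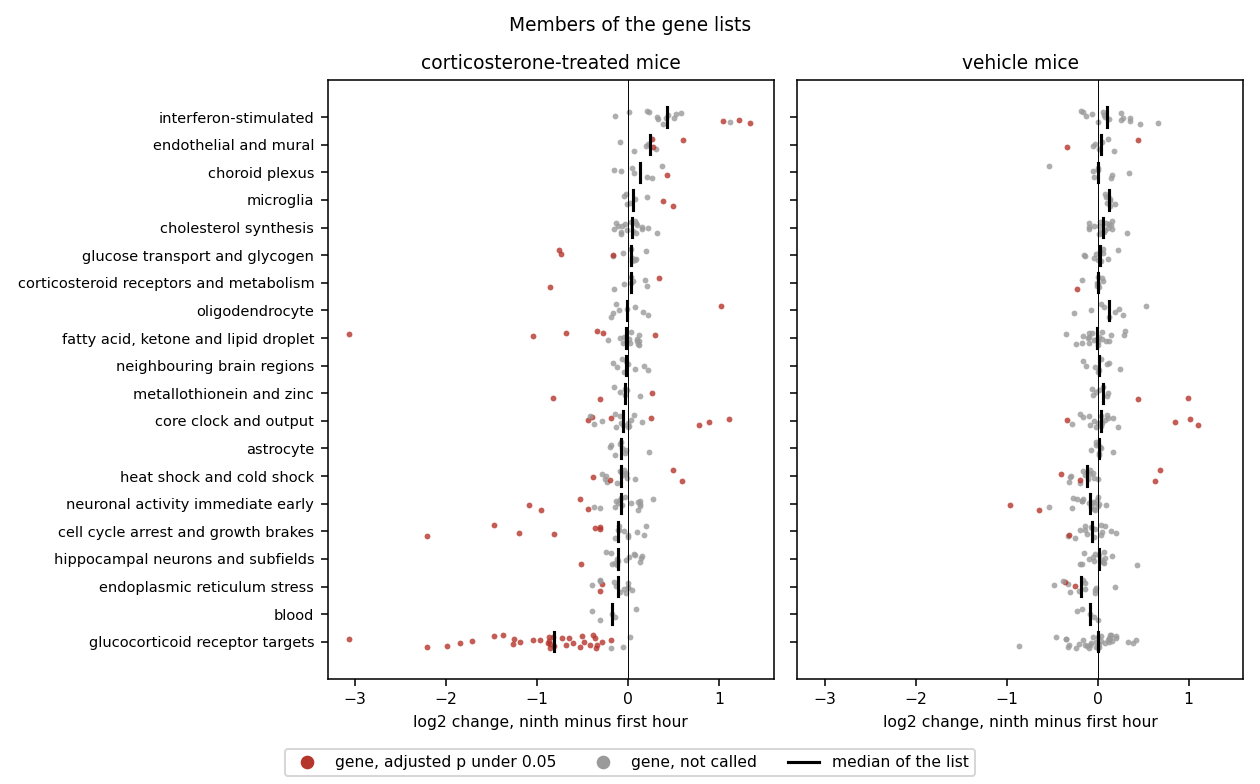
Log2 change, ninth against first hour, (horizontal axes) for the members of 20 gene lists, in corticosterone-treated mice (left) and vehicle mice (right), with 1 point per gene, red where the adjusted p is under 0.05, and a black bar at the median of each list. The receptor targets are the list with a median far below 0 in treated mice, at -0.818, and lie at 0.00744 in vehicle mice.

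The fifth hour, with 8 further treated mice, lay between the other hours for most of these genes. For the 15 genes with the largest falls, the fitted change from the first to the fifth hour was a median of 52.3% of that to the ninth, from 1.53% (Lao1) to 92.2% (Depp1). The 15 largest rises had a median of 52.1%, from 8.76% (Tlr12) to 87.7% (Gpr84), and the 33 called receptor targets one of 53.8%, from -3.57% (Fam107a) to 114% (Txnip). The larger part of the change was reached by then in 19 of the 33 targets. Mean intensities during the fifth hour were 834 for Plin4, 3045 for Fkbp5, 3738 for Tsc22d3 and 74525 for Mt2. These shares are descriptions with no test, since the genes were chosen by the change between the first and the ninth hour.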

How the data were processed

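Hippocampal RNA was hybridized on 24 two-colour Agilent arrays. The deposited scanner files give, per the file headers from Agilent Feature Extraction 10.7.3.1, unprocessed median intensities of 62976 spots with local background medians and spot marks, of which the 0 or 1 marks for outliers, saturation and signal well above background were used. The authors also deposited a table of normalized log2 ratios, used as a check on scale (median absolute difference 0.0101) and direction. Here intensities were corrected with normexp, loess-normalized within and quantile-normalized between arrays in limma 3.58.1 (R 4.3.3, statmod 1.5.0, data.table version 1.17.8, jsonlite 2.0.0). An offset of 50 served for p-values and one of 0 for fold changes, standard errors and the intensities printed.

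The separate channel test of limma was fitted to 6 groups over 24 arrays (intraspot correlation 0.279) with Benjamini-Hochberg adjustment over 56605 probes, called at an adjusted p under 0.05. Control spots (3671) were left out after background correction, and outlier spots were treated as missing. RefSeq names were found for 34566 probes, and a gene on a list was measured by its brightest probe. Named genes were the 15 highest and 15 lowest log2 changes in treated mice, and the 10 highest and 10 lowest differences, among called probes with a mean intensity of 50 or more and spots well above background on all 8 arrays of an hour, for the differences in the treated and also in the vehicle channel. The comparison, members and lists were chosen with earlier results of these data known. Fits were tested on simulated data. Alternatives were other offsets, background and array normalizations, the scanner's processed signals, filters on dim probes, slide as a block, an intensity trend, 16 arrays, and leaving out each array or slide. Within-slide values are differences of mean log2 intensities on 1 slide. Labels give separate mice, and the number of arrays limits precision. Rorb and Hbb-bs had no probe under these names.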

Additional observations from a re-analysis of the deposited data

Results flagged for a closer look

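In 6 of 84 groups of 8 treated mice tested among the named genes, 1 mouse stood far from the others by Dixon's test, which chance gives in about 1 in 20 groups. In the first hour the lowest mouse for Nr1d1 was at 256 with the next at 447 (gap over range 0.528). The highest mouse for Pmaip1 was at 2040 with the next at 993 (0.7), for Fmo2 at 217 with the next at 128 (0.556) and for Fas at 248 with the next at 142 (0.582). These 4 values belong to the same animal, replicate 8 of the first hour. In the ninth hour the highest mouse for Fabp7 was at 9730 with the next at 7560 (0.658), and for Acer2 at 176 with the next at 127 (0.653).

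Named probes called in the test of the difference between treated and vehicle changes covered 367 genes. The 10 highest and 10 lowest differences among those that passed the filters on intensity in both channels are given here, and since the same test chose them, they are a description. The log2 difference was 0.92 for Fgfrl1, 0.90 for Pcdh12, 0.87 for Hes5, 0.83 for Meox1, 0.79 for Tmprss5, 0.77 for Bcl3, 0.71 for Rhcg, 0.71 for Derl3, 0.70 for Gpr84 and 0.70 for Cdc42ep1. It was -2.72 for Plin4, -2.24 for Hif3a, -1.89 for Cdkn1a, -1.82 for Mt2, -1.75 for Map3k6, -1.51 for Tsc22d3, -1.40 for Fas, -1.39 for Paqr5, -1.39 for Plekhf1 and -1.37 for Acer2.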

How the results depend on the processing

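Of the 142 results on named genes, none changed its direction under the alternatives run for it. Counts of called probes moved most when a slide was left out, and the cause was not tested. Without slide 1, 2 or 3 the count in treated mice was 751, 1251 or 1002 instead of 2277, and that of the difference 123, 259 or 176 instead of 468, with 12.2% of the difference calls higher without slide 1, 19.3% without slide 2 and 30.6% with all arrays. Without slide 1, 41.3% of the treated calls were higher (310 against 441 lower), against 54.9% with all arrays. In vehicle mice the count of 304 became 5 without slide 1, 135 without slide 3 (56 higher and 79 lower, against 163 and 141) and 480 in a fit of 16 arrays. Leaving out 1 array at a time gave 1741 to 2807 in treated mice, 164 to 465 in vehicle mice and 347 to 560 for the difference, lowest without replicate 4 of the ninth hour and highest without replicate 7 of the fifth. Moves over 1.5 times came in vehicle mice without replicates 2, 3 or 7 of the first, 7 of the fifth, or 2, 3, 4 or 8 of the ninth hour. All other settings kept each total within 1.5 times, which does not hold for each direction. Higher calls in the difference went from 143 to 86 without replicate 4 of the first or of the ninth hour. In vehicle mice higher calls went from 163 to 250 with the scanner's processed signals, and lower calls from 141 to 88 without slide 2.

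Of the 142 results, 142 had the same sign within all 3 slides, 138 were called with slide as a block (not Derl3, Gadd45g, Creld2 and F5), and 101, 114 and 102 without slide 1, 2 and 3. The results were chosen by their calls on these same slides, so that an unchanged sign or direction is no independent support. Calls lost without at least 1 slide included the treated changes of Tnfsf10, Lao1, Vtn, Nr4a1, Fos, Ucp2, Ppara, Aif1, Ppp1r3c, Ciart, Nr1d2, Fam107a, Zbtb16 and Dusp1 and the differences of Ppp1r3g, Fmo2, Cebpd and Irs2. The call was kept in every fit without 1 array for 129, and 13 lost it at least once, Derl3 in 15, Creld2 in 14 and Manf in 13 of these fits. Adjusted p for Gbp4 was 0.4 without slide 1 and 0.11 without slide 3, for Tlr12 0.38, 0.16 and, with the scanner's processed signals, 0.065, and for Xdh 0.26 without slide 3 and 0.065 in the Cy5 channel alone. No paired analysis was possible between the hours because replicate numbers follow the order of the samples and mark no shared animal, litter or day. Treated and vehicle mice are paired within arrays, and limma on the log ratios of the arrays called 469 probes in the difference. Signal over background limits dim genes such as Tmem52, Lao1, Fmo2 and Ccl12.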
